A study of Mus musculus with 2 samples.

Results

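The 46 genes described here encode the machinery that copies DNA in S phase and the enzymes that supply its deoxynucleotides (dNTPs). They were listed by gene name and function, not by their values, though earlier results of these data were already known. Of these 23 act in origin licensing and firing, 19 are polymerases and other proteins of the replication fork, and 4 make dNTPs. All 46 had a probe set annotated with that gene alone, among 18193 such genes on the array. Their messenger RNA was measured in rib chondrocytes, the cartilage-forming cells, taken from 5-day-old mice and cultured. A wild-type culture was set against a culture without the microRNA miR-140, which cartilage makes at high level. Both carried the same strain label, which names C57BL/6 and CBA. How the allele was made, how many mice were pooled and how long the cells were cultured are not given in the sources used here. Each group has 1 Affymetrix Mouse Genome 430 2.0 array, so no difference below has a replicate check or a p-value, and each describes this pair of arrays.

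Replication begins when the origin recognition complex marks origins and, with CDC6 and CDT1, loads rings of the MCM2 to MCM7 helicase onto DNA, a step called licensing. In S phase CDC45 and the GINS complex switch the helicase on, primase and polymerase alpha start each strand, and polymerases epsilon and delta extend it on the sliding clamp PCNA. E2F transcription factors, held back by the retinoblastoma protein until the cell commits to divide, drive many of these genes. Young rib chondrocytes still divide, and division ceases as they mature.

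RefSeq (GRCm38.p6) places the mature strand shown here at chr8:107551288-107551308 on the plus strand. The other mature strand of the deleted microRNA had no sequence in the sources used here, so it is not shown. The strand below is given because its seed, bases 2 to 8 in capitals, is the part of that strand that pairs with target messages.

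mmu-miR-140-3p: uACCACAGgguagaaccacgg

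No value below tests whether a replication gene is such a target, and the mature microRNA itself has no probe set here.

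Each gene was read by its brightest probe set, on the deposited log2 scale of Robust Multichip Average (RMA), and was compared where at least 1 array reached a floor of 7. A difference is the knockout minus the wild-type value. Of the 46 genes 39 passed the floor; across all genes 9897 did. The 7 under the floor in both arrays were Cdc6, Gins1, Gins3, Ccne2, Pola1, Pole and Tyms. Closest to the floor, Gins3 read 6.94 and 6.92 just outside it, and Pole2 (7.11 and 6.80) and Orc5 (7.27 and 7.03) just inside.

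The labelled cell type was checked against marker genes. Of 12 chondrocyte markers 11 were above the floor, Matn1 being the exception, and all 11 were lower in the knockout array, with a median of -2.00. Their summed linear signal, all 12 included, was 60628 in the wild-type array and 17260 in the knockout array. Of 10 fibroblast and perichondrium markers 9 were above the floor, 7 of them higher in the knockout, and the sum was 27412 and 34032. Leukocyte, endothelial and skeletal muscle lists had 4 of 6, 1 of 5 and 1 of 6 markers above the floor, and their sums were 727 and 771, 250 and 242, and 423 and 452. Ptprc, Pecam1, Cdh5, Myod1 and Myog stayed under the floor, as did all 4 osteoblast markers with a probe set of their own. Xist, made from an inactive X, differed by 3.59 and the Y-linked gene Eif2s3y by -4.68, so the cultures also differed in sex or in their mix of sexes. The 18S ribosomal RNA control probe sets differed by a median of -0.52. The part that these differences have in the values below was not tested, and in RNA from a whole culture fewer cells of a kind and less RNA per cell cannot be told apart.

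As a group the replication genes lay close to the array's background. Their median difference was -0.06, beside -0.05 for all genes compared. Lower signal in the knockout was found for 26 of 39 (66.7%), against 59.2% of all genes compared; 12 were higher, and Rpa2 was equal. With each array centred on its median 21 of 39 were lower, against 49.5% of all genes. A gene is called lower or higher here when its difference reaches 0.32 on the log2 scale, which is a linear ratio of 5 to 4. That size was reached by 5 genes in the lower direction (12.8%, against 11.1% of all genes) and by 1 in the higher direction (2.56%, against 5.52%). None reached 1.5-fold, which 3.56% of all genes did in the lower and 1.56% in the higher direction. The shares for the list are thus near those of all genes, and the calls are not read as a trait of the list. The called members are named as a description of this pair of arrays. The 5 lower genes were Mcm6, Lig1, Mcm2, Mcm5 and Cdt1, and the higher one was Rfc3.

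The scale of disagreement within an array pair can be read from genes with several probe sets. Across 3838 genes whose 2 brightest probe sets were both above the floor, the differences of those probe sets were a median of 0.18 apart, and 10% of genes had a gap above 0.48. For 20 replication genes the median gap was also 0.18, and 10% had a gap above 0.31. A replication gene that differs by 0.2 therefore lies within what probe choice alone can change. The called differences of Cdt1 (-0.33), Mcm5 (-0.41) and Mcm2 (-0.46) were also smaller in size than 0.48. Those of Lig1, Mcm6 and Rfc3 lay only slightly past it. Of 20 replication genes with at least 2 probe sets above the floor, 13 had no 2 of opposite sign and 7 had probe sets of both signs: Orc3, Mcm4, Ccne1, Rpa1, Fen1, Rrm1 and Rrm2.

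**Figure D1:**
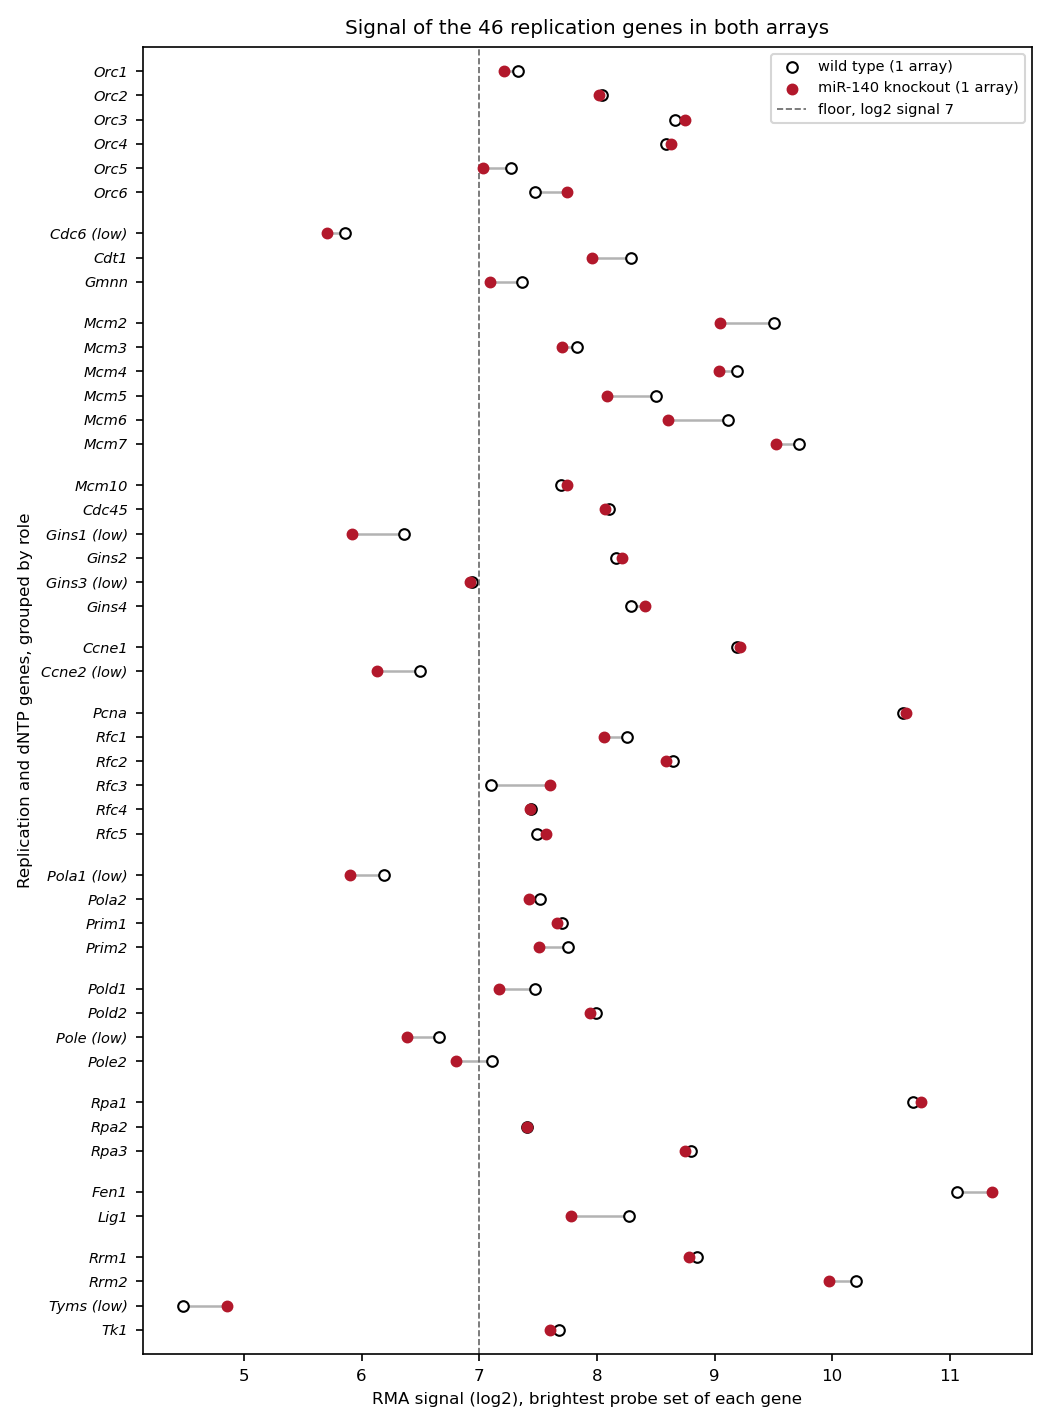
RMA log2 signal (x axis) of the brightest probe set of each of the 46 genes (y axis, grouped by role), with an open circle for the wild-type array and a filled circle for the knockout array; 1 array each, so there are no error bars. The dashed line is the floor of 7, and the 7 genes under it in both arrays are marked low; the widest gaps above the floor are those of Mcm6, Rfc3 and Lig1.

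Licensing comes first in the order of events. The licensing and firing part held 19 of the 39 genes above the floor and 4 of the 5 lower genes, against 11.1% of all genes called lower. The MCM2 to MCM7 subunits form a ring of 6 different ATPases that unwinds DNA. Mcm6 had a wild-type signal of 9.11 and a knockout signal of 8.61, so it differed by -0.50 (1.42-fold lower), and a further probe set gave -0.60. Mcm2 read 9.51 and 9.05, a difference of -0.46 (1.37-fold lower), with -0.24 in its other probe set. Mcm5 read 8.50 and 8.09, a difference of -0.41 (1.33-fold lower), and has no other probe set above the floor. These 3 subunits had the most negative differences of the ring.

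The remaining subunits pointed the same way with smaller gaps. Mcm7 read 9.72 and 9.52 (-0.20), and its 4 probe sets above the floor were all lower, by -0.06 to -0.20. Mcm4 read 9.20 and 9.03 (-0.16), but a further probe set differed by 0.03. Mcm3 read 7.83 and 7.71 (-0.13), with -0.33 in a further probe set that can share letters with other transcripts. Its probe sets of 1 transcript stayed under the floor, at 0.13, -0.08 and 0.04. Thus 6 of 6 MCM2 to MCM7 genes were lower by the probe set used for each, against 59.2% of all genes compared. The probe sets used for Mcm2, Mcm3, Mcm4, Mcm5 and Mcm7 can share letters with other transcripts, and only that of Mcm6 is of 1 transcript. The 6 had a median of -0.31, and 3 were called lower, against 11.1% of all genes. In the other settings tried the median ran from -0.23 to -0.41, and the lower direction held for every subunit compared except Mcm4 with probe sets of 1 transcript only, where 3 of the subunits could be compared.

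The factors that regulate loading were lower where they could be compared. Cdt1, the loading factor destroyed after licensing, read 8.29 and 7.96, which is -0.33 (1.26-fold lower), with -0.57 in a further probe set. Its call sits at the threshold: with median centring, lowess centring or a further quantile normalization the brightest probe set gave -0.28, -0.28 and -0.31, short of a call. Geminin (Gmnn), which binds CDT1 and blocks a second loading in the same cycle, read 7.36 and 7.09 (-0.27). Both were lower, although they act in opposite ways. Cdc6, the ATPase that loads the ring with CDT1, stayed under the floor at 5.86 and 5.70.

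The origin recognition complex did not share this direction. Its 6 genes split into 3 lower and 3 higher, with a median of 0.01; Orc2 was higher under all 3 other scalings. Orc5 read 7.27 and 7.03 (-0.24), Orc1 7.33 and 7.21 (-0.13), and Orc2 8.04 and 8.02 (-0.03). Orc4 read 8.59 and 8.63 (0.04), Orc3 8.66 and 8.75 (0.09), and Orc6 7.47 and 7.74 (0.27, 1.21-fold higher). Orc5 and Orc6 thus lay at the ends of the spread, and neither was called.

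Genes that switch the loaded helicase on were nearly level between the arrays. Cdc45, the helicase cofactor, read 8.11 and 8.07 (-0.04). Gins2 read 8.16 and 8.21 (0.05) and Gins4 8.29 and 8.41 (0.12), while Mcm10, a factor needed to start unwinding, read 7.70 and 7.74 (0.05). The GINS complex has 4 subunits, and Gins1 (6.36 and 5.92) stayed under the floor like Gins3. Of the 4 genes above it in this group 3 were higher in the knockout array, all by 0.12 or less, and Cdc45 turned from -0.04 to 0.01 with median centring.

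Cyclin E, the partner of CDK2 at the entry to S phase, was read by Ccne1 at 9.19 and 9.22 (0.03), with -0.17 in its other probe set. Ccne2 stayed under the floor at 6.50 and 6.13. In all, 12 of the 19 licensing and firing genes above the floor were lower, against 59.2% of all genes compared. Of the 19, 4 were called lower, against 11.1% of all genes, and none higher, against 5.52%. Their median was -0.13, beside -0.05 for all genes.

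**Figure D2:**
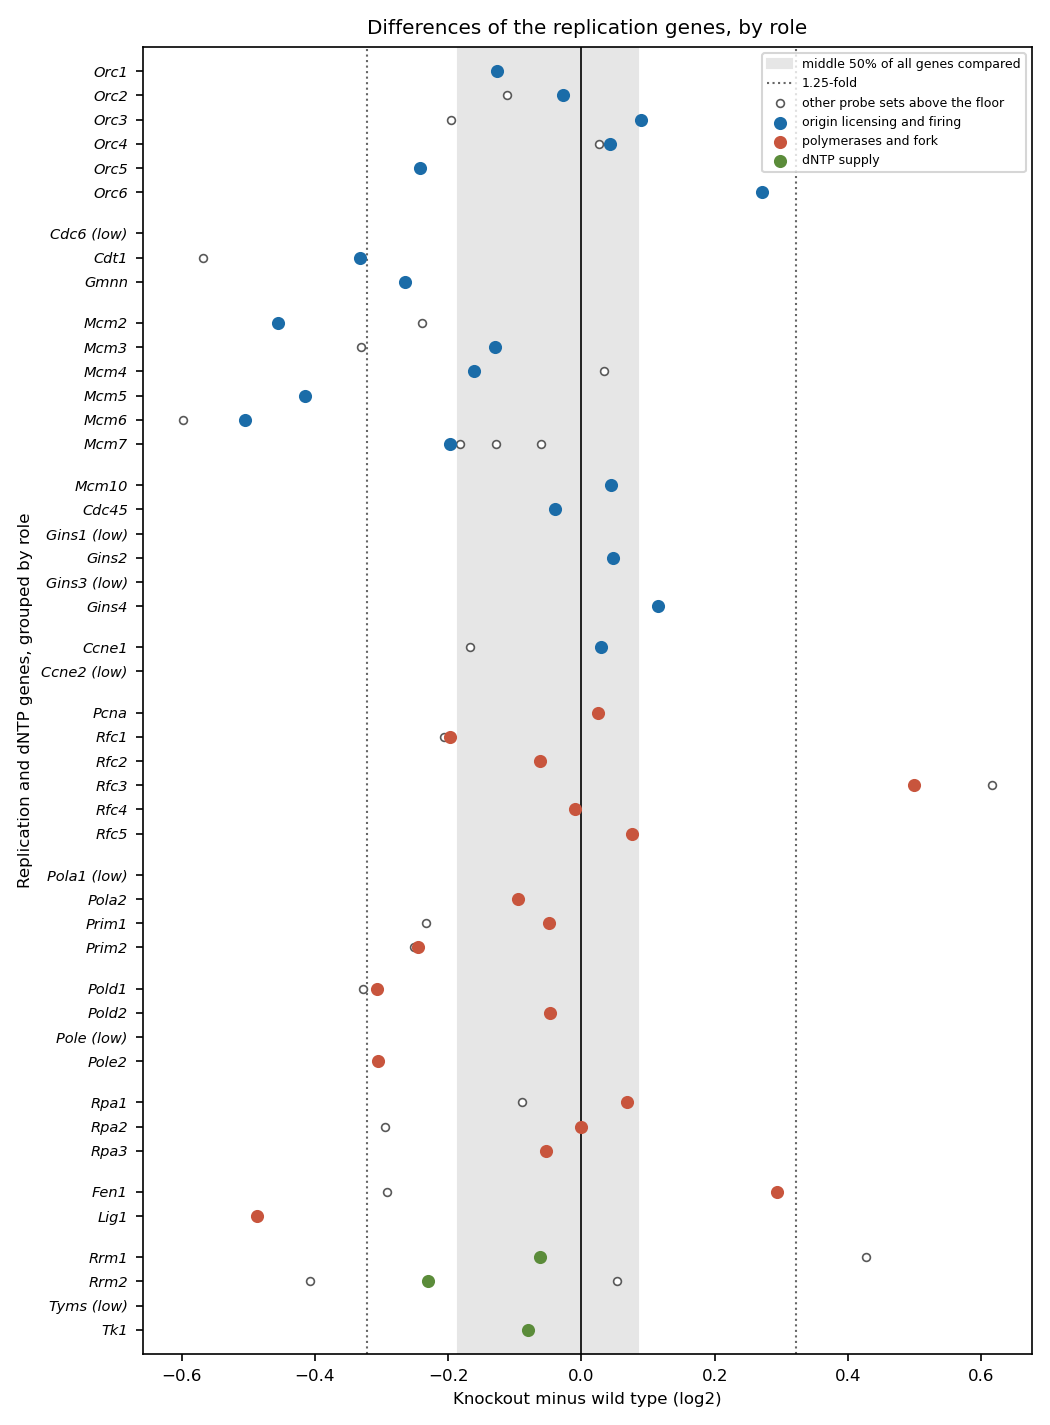
Knockout minus wild-type log2 difference (x axis) of each gene by role (y axis). Filled points are the probe sets used, open points the other probe sets above the floor, grey the middle 50% of all genes compared, and dotted lines the size used to call a gene, 0.32; Mcm2, Mcm5, Mcm6, Cdt1 and Lig1 lie past the left line and Rfc3 past the right.

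At the fork, PCNA, the sliding clamp and a common marker of dividing cells, read 10.60 and 10.63 (0.02). The replication factor C complex, which opens the clamp and sets it on DNA, split: Rfc1 read 8.26 and 8.06 (-0.20), Rfc2 8.65 and 8.59 (-0.06), Rfc4 7.44 and 7.43 (-0.01) and Rfc5 7.49 and 7.56 (0.08). Rfc3 stood apart from its partners. It read 7.10 and 7.60, a difference of 0.50 (1.41-fold higher); a further probe set gave 0.62, and its wild-type signal lay just above the floor.

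Polymerase genes that could be compared were all lower, by small amounts, although Prim1 and Pold2 came to 0.00 with median centring and lay above 0 with lowess centring. For polymerase alpha and primase, which lay the primers, Prim2 read 7.75 and 7.51 (-0.25), Pola2 7.52 and 7.42 (-0.09) and Prim1 7.71 and 7.66 (-0.05). The catalytic gene Pola1, the 1 X-linked gene of the 46, stayed under the floor at 6.19 and 5.90. Pold1, the catalytic subunit of polymerase delta, read 7.47 and 7.17 (-0.31, 1.24-fold lower), with -0.33 in a further probe set. Its partner Pold2 read 7.99 and 7.94 (-0.05). Pole2, a subunit of polymerase epsilon, read 7.11 and 6.80 (-0.30), while the catalytic gene Pole stayed under the floor at 6.65 and 6.39. All 6 polymerase and primase genes above the floor were lower, against 59.2% of all genes compared. Their median was -0.17, beside -0.05 for all genes, and none was called. The knockout signal of Pole2 is below 7; raising such low values to 7 brought its difference to -0.11.

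The single-strand binding protein RPA coats unwound DNA. Rpa1 read 10.69 and 10.76 (0.07), Rpa3 8.80 and 8.75 (-0.05), and Rpa2 7.40 in each array. Rpa1 and Rpa2 have further probe sets at -0.09 and -0.29. The 3 RPA genes therefore showed no shared direction.

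Okazaki fragments of the lagging strand are trimmed by the flap endonuclease FEN1 and joined by DNA ligase 1, and these genes pointed in opposite directions. Lig1 read 8.27 and 7.78, a difference of -0.49 (1.40-fold lower), from its 1 probe set. Fen1 read 11.06 and 11.35, a difference of 0.29 (1.23-fold higher), but a further probe set was lower by as much, at -0.29, so no direction is given for it. Over the fork genes 11 of 17 above the floor were lower, against 59.2% of all genes compared. In each direction 1 was called, against 11.1% lower and 5.52% higher over all genes. The median was -0.05 for the fork genes and -0.05 for all genes.

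The dNTP enzymes above the floor had a median near that of all genes compared, although Rrm2 lay below the lower quartile of all genes (-0.18). Ribonucleotide reductase makes deoxynucleotides from ribonucleotides with a large subunit, Rrm1, and a small one made in S phase, Rrm2. Rrm2 read 10.20 and 9.97 (-0.23), with further probe sets at -0.41 and 0.05. Rrm1 read 8.85 and 8.79 (-0.06), but a further probe set differed by 0.43. Thymidine kinase (Tk1), which salvages thymidine, read 7.68 and 7.60 (-0.08). Thymidylate synthase (Tyms) read 4.48 and 4.86, far under the floor, in the probe set used. A probe set shared by Tyms and its pseudogene read 8.14 and 8.06 (-0.07) and cannot be assigned to either. The 3 genes above the floor were all lower, against 59.2% of all genes, with a median of -0.08 beside -0.05 for all genes. However, the mean of all probe sets put Rrm1 at 0.11, and both reductase genes had probe sets of opposite sign.

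The promoters of the 6 called genes are shown because E2F factors are known to drive this gene set. Sequences are from RefSeq (GRCm38.p6), 5′ to 3′ on the strand of the gene. Capitals mark the E2F words searched (TTTGGCGC, TTTCGCGC, TTTCCCGC and TTTGCCGC) and the core GGCGGGA, on either strand. Words can overlap, as in Mcm5 and Mcm6. For the MCM genes the 160 bases before the start are given: Mcm6 at chr1:128359706-128359865 (minus strand), Mcm5 at chr8:75109349-75109508 (plus) and Mcm2 at chr6:88898781-88898940 (minus).

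Mcm6: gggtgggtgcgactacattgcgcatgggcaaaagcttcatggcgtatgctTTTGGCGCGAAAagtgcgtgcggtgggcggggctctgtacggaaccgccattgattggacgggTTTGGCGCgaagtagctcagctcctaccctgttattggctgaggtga

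Mcm5: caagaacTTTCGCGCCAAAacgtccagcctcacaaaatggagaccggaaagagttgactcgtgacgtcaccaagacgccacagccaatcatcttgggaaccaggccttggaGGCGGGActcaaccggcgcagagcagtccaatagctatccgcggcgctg

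Mcm2: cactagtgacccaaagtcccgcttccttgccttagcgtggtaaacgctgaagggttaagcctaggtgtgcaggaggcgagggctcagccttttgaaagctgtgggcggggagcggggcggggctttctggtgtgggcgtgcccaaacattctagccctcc

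For the other genes 30 bases that hold the words are given: Cdt1 at chr8:122568035-122568064 (plus), the second of 3 listed Lig1 starts at chr7:13278834-13278863 (plus) and Rfc3 at chr5:151651195-151651224 (minus).

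Cdt1: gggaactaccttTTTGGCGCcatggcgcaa

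Lig1: ccccTCCCGCCaaagtgcGCGCGAAAtctg

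Rfc3: gcacgcTTTCGCGCtcGCGGGAAAactcta

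Mcm6 holds E2F words that begin 110, 106 and 47 bases before the start, and Mcm5 words that begin 153 and 149 bases before it. Cdt1 and Lig1 have theirs at bases 33 and 27 of the transcript, and Rfc3 has words 10 bases before the start and at base 1. The Mcm2 window holds none of these words.

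Promoter windows of 250 bases before to 50 after the start were listed for 37 of the 46 genes; a gene with several listed starts counts once, if any window holds the word. An E2F word was present in 14 of the 37 (37.8%), against 2.6% of 27025 genes in the table. The core word was in 14 (37.8%, against 12.7%), the CCAAT box in 23 (62.2%, against 41.1%) and TTTGAA, a word found at genes of late cell cycle, in 5 (13.5%, against 20.2%). TTTGCCGC was in none of the 37. The promoter table also holds genes not compared here. Among compared genes with a listed promoter, 383 held an E2F word and 7676 did not. The core was in 1988 and absent from 6071, CCAAT in 3424 and absent from 4635, and TTTGAA in 1112 and absent from 6947. In members above the floor these counts were 11 and 22, 14 and 19, 21 and 12, and 4 and 29. The lower TTTGAA share is thus not read as a trait of the members. A match describes letters in a window and does not show that a factor binds there.

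Of the genes with an E2F word 11 were above the floor, 9 of them lower and 4 called lower (Mcm5, Mcm6, Cdt1 and Lig1), with a median of -0.30. Of the 22 without a word 13 were lower and 1 called lower (Mcm2), with a median of -0.03. With the shorter window, 100 bases before to 50 after the start, 3 of 10 genes with a word and 2 of 23 without were called lower, with medians of -0.25 and -0.04. With the mean of each gene's probe sets it was 1 of 6 and 1 of 18. Rfc3, the 1 gene called higher, has E2F words too, and Orc3, at 0.09, has TTTCCCGC. Over all 383 genes with an E2F word above the floor the median was -0.05 and 12.5% were called lower; over 7676 without one, -0.05 and 11.1%. No gap in medians like that within the replication genes was seen over all compared genes, and whether E2F factors have a part in it was not tested. The gap within the replication genes was narrower with low values raised to 7, where the medians were -0.20 and -0.03. With median centring they were -0.25 and 0.02.

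**Figure D3:**
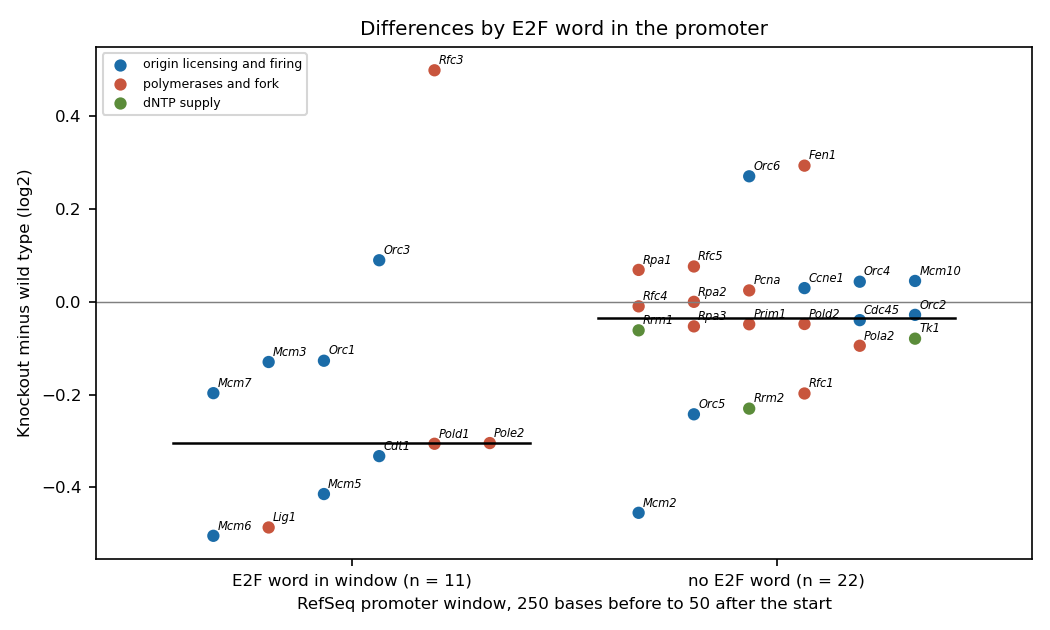
Knockout minus wild-type log2 difference (y axis) of the 33 replication genes above the floor with a listed promoter, split by whether the window holds an E2F word (x axis). Each point is a gene, spread sideways for legibility and coloured by part (origin licensing and firing, polymerases and fork, or dNTP supply). Bars are medians (-0.30 for 11 genes and -0.03 for 22). The members were not chosen at random and no test was made.

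Regulators upstream of these promoters gave no common direction. Of 18 listed E2F and retinoblastoma family genes 12 were above the floor, 6 lower and 6 higher, against 59.2% of all genes compared that were lower. Their median was 0.00. Rbl1 (p107, a retinoblastoma relative) read 7.36 and 6.94 (-0.41), its knockout value lying under the floor, and Rb1 read 8.99 and 8.67 (-0.33), a size that no longer makes a call once the median difference of all genes is taken off. These 2 were the calls among the 12, against 11.1% of all genes called lower and 5.52% called higher. Both encode repressors of E2F targets, and a link to the values above was not tested. E2f5 read 10.95 and 11.19 (0.25) in its brightest probe set, but 2 of its 3 probe sets above the floor were lower, down to -0.27. E2f1 read 7.42 and 7.57 (0.14), while E2f2, E2f4, E2f7, E2f8, Lin9 and Mybl2 stayed under the floor.

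The wider pathway was read from lists of 99 further genes, 70 of them above the floor. Of these 45 were lower, 11 of them called, and 1 was called higher, with a median of -0.10. Over all genes compared 59.2% were lower, 11.1% called lower and 5.52% called higher, with a median of -0.05, so the share lower is near that of all genes. Of 10 other origin firing genes 6 were lower and 2 called: Ccna2 (cyclin A2, the S phase cyclin) read 8.26 and 7.83 (-0.43, with -0.02 in its other probe set) and Donson, a fork protection factor, 7.93 and 7.53 (-0.40). Of 18 other fork and chromatin assembly genes 10 were lower and 2 called: Top2a, which untangles copied DNA, read 8.61 and 8.19 (-0.42), and Pole3 read 9.27 and 8.88 (-0.40, with 0.23 in another probe set). Of 7 S phase checkpoint genes 4 were lower and none was called; Atr, the kinase that senses stalled forks, read 7.54 and 7.25 (-0.29) and Chek1 7.02 and 7.22 (0.20).

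Other nucleotide synthesis genes held the gene of this pathway that lay farthest from 0. Of 23 above the floor 19 were lower, against 59.2% of all genes, and 5 were called lower, against 11.1%, with a median of -0.10 beside -0.05. Dck, the kinase that salvages deoxycytidine, read 8.43 and 7.78 (-0.65, 1.57-fold lower), with -0.54 in its other probe set. Samhd1, which does the reverse by breaking dNTPs down, read 9.51 and 8.93 (-0.58, 1.49-fold lower), but its 4 probe sets above the floor ran from -0.71 to 0.20. Cmpk1 (UMP-CMP kinase) read 11.68 and 11.21 (-0.47), and Dut, which removes dUTP, read 7.89 and 7.48 (-0.41). Paics, a purine synthesis enzyme, read 11.93 and 11.54 (-0.39), with 3 of 3 probe sets lower. Dguok, the mitochondrial deoxyguanosine kinase, read 8.36 and 8.75 (0.39, 1.31-fold higher). The calls of this list thus went in both directions, and no direction is given for Samhd1.

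**Figure D4:**
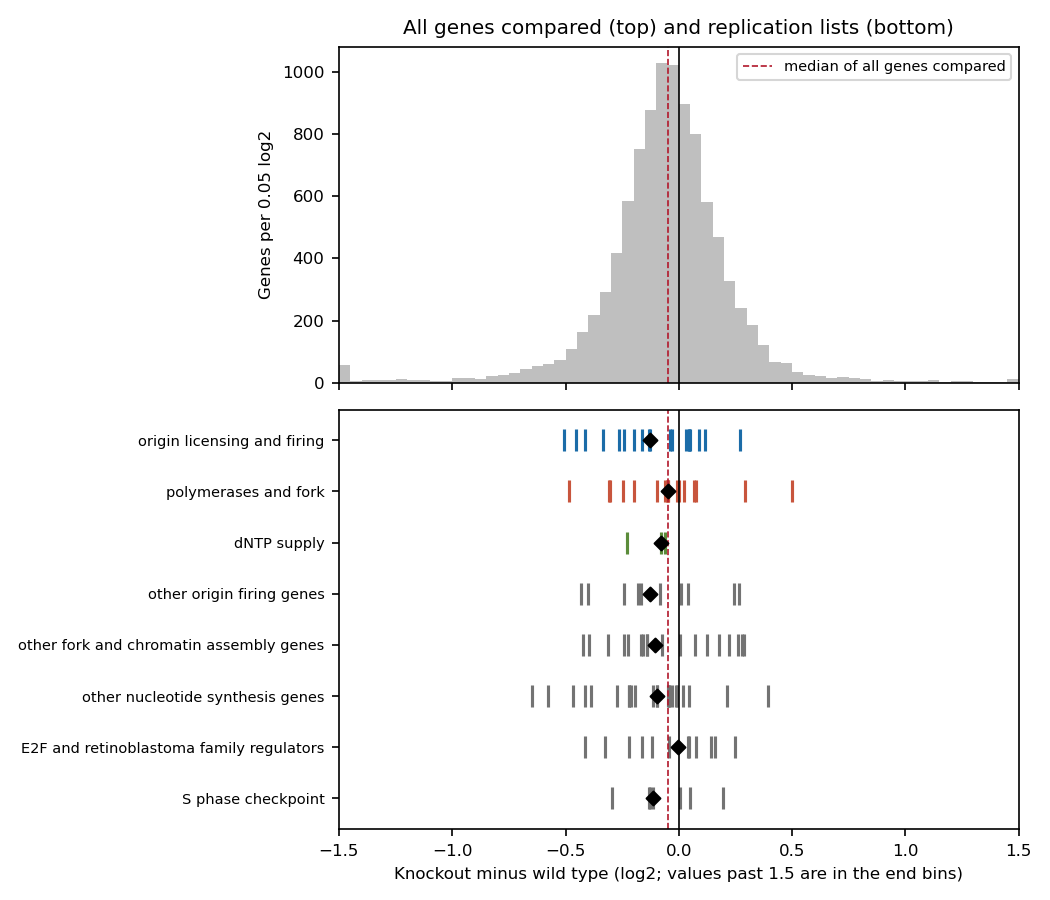
Top, number of genes per 0.05 log2 step of the knockout minus wild-type difference for all 9897 genes compared. Bottom, each gene above the floor as a tick and each list's median as a diamond, with the dashed line at the median of all genes (-0.05); medians run from -0.13 (licensing and firing) to 0.00 (E2F and retinoblastoma family), within the bulk of the histogram.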

How the data were processed

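The deposited values are log2 signals that the authors made with RMA, per the labels' design text, in Affymetrix Expression Console 1.1, per the submitters' processing notes. RMA subtracts background, quantile-normalizes and combines probes into one value, so a shift shared by most genes would be removed and dim differences are compressed. The set of arrays in that normalization is not given. Symbols came from the platform annotation; all 46 matched RefSeq GRCm38.p6 by Entrez identifier. The number of arrays, 1 a group, limits the precision and allows no test.

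Each gene took its brightest probe set by mean log2 signal, compared at a floor of 7 in either array. All 46 members are given; of other pathway lists, called genes (a log2 difference of 0.32) and otherwise examples from both ends; markers were read for cell type. The members and lists were chosen with earlier results of these data known. Of the probe sets used for members above the floor, 15 end in _a_at, _s_at or _x_at and can share letters with other transcripts. Promoters came from RefSeq (GRCm38.p6), and those printed are of called genes, which were chosen by their values. Analyses used Python 3.11.15, pandas 2.3.3 and statsmodels 0.14.6, and counting was tested on simulated data. Alternatives were 3 scalings, 3 floors, raised low values, 2 rules for probe sets, left-out members, other folds and a shorter promoter window; 2 more, and the group medians by setting, were added after the data were seen.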

Additional observations from a re-analysis of the deposited data

How the results depend on the processing

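Depth here means signal over background: 7 of the 46 genes were under the floor and give no usable difference. The median over the members stayed within 0.1 of -0.06 in all settings run, at -0.01 with median centring and -0.08 with probe sets of 1 transcript as the ends of the range; under median and lowess centring the median of all genes is near 0 as well. With a floor of 8, 14 of 22 members were lower, against 59.6% of all genes. The count called lower was 5 of 39, against 11.1% of all genes. It was 2 when a gene's probe sets were averaged (30 members above the floor), against 8.2%. Under median centring, further quantile normalization and lowess centring it was 4 each time, against 8.6%, 10.0% and 8.7%. With no floor it was 7 of 46, against 8.7%. It was 0 at 1.5-fold and 0 at 2-fold, sizes that 3.56% and 1.22% of all genes reached in the lower direction. Leaving out Pola1 changed nothing, since it is under the floor. Among 319 values of single genes under alternatives, 303 moved by under 0.1 and 16 by more, and no called gene changed sign; 10 uncalled genes did. With E2F words only, 14 promoters of the 37 held a word, against 23 with the core word included. In an alternative chosen after seeing the data, without genes whose probe sets differ in sign, 23 of 32 members were lower, 5 of them called. Of all genes in that setting 57.7% were lower and 12.3% called lower.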
